A study of Mus musculus with 7 samples.

Results

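Calb1 and 7 transcription factor genes that mark or regulate the ureteric tree and the collecting duct were followed in whole kidneys of mouse embryos at E15.5. The 7 factor genes were Gata3, Gata2, Emx1, Emx2, Tfcp2l1, Elf5 and Ehf, and Calb1 encodes a calcium-binding protein. Members were chosen by symbol from the deposited table, which held all 8 of 8 among its 16167 genes. In the 4 mutant libraries, Six2-Cre; Irx3/5(loxP/loxP), the embryos were homozygous for the floxed Irx3/5 allele and carried Six2-Cre. In the 3 control libraries, Irx3/5(loxP/+), the littermates were heterozygous for that allele. Both groups therefore carry at least 1 floxed allele. The labels name no Cre for the controls and call them wild type, so the deletion and the Cre transgene as sources of a difference cannot be told apart. The number of embryos behind each library is not given in the labels, and p-values therefore measure only the spread among these 7 libraries.

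The collecting duct system grows from the ureteric bud, an outgrowth of the nephric duct whose tips branch inside the kidney mesenchyme while its trunks lengthen and mature into collecting ducts. The nephron, including its distal and connecting tubules, arises from the Six2-expressing progenitors around those tips, the cells in which Six2-Cre is active, and not from the ureteric bud. Mature collecting ducts hold principal cells, which move water and sodium, and intercalated cells, which move acid and base. The deleted genes Irx3 and Irx5 belong to the Iroquois family of homeobox factors. In whole-kidney RNA, fewer cells of a type and less RNA per cell cannot be told apart.

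Depth, as the sum of whole reads recovered for the genes in the table, ran from 45539155 to 53497462 in mutants and from 40511920 to 69028943 in controls. The targeted gene Irx3 was at 6.63, 3.98, 5.57 and 6.75 FPKM (fragments scaled by gene length and by library depth) in mutant replicates 1 to 4, against 14.7, 14.2 and 12.7 FPKM in control replicates 1 to 3. Irx5 was at 2.05, 0.895, 1.13 and 2.03 FPKM in mutants and at 1.36, 1.55 and 1.59 FPKM in controls. Irx3 was thus lower in every mutant library, while Irx5 overlapped between the groups, and which exons the floxed allele removes is not stated. Of the kidney markers Six2, Pax2, Wt1, Foxd1 and Nphs1, all 5 passed the filter on low values in these libraries, so the labelled tissue is represented.

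Promoter windows were matched in the RefSeq table by symbol (build GRCm38.p6, 250 bases before to 50 after the start site) for 6 of the 8 members; Calb1 and Ehf were not matched. The windows of Gata3, Tfcp2l1 and Emx1 are shown because these are the matched members whose unadjusted limma p was below 0.05. Capitals mark matches to the GATA motif (AGATAA or, with another first letter, TGATAA, and both with a final G, as AGATAG or as TGATAG), to the Ets motif CCGGAAG, or to the Iroquois motif ACATGT, each searched on both strands.
Gata3 (chr2:9878551-9878850, minus strand): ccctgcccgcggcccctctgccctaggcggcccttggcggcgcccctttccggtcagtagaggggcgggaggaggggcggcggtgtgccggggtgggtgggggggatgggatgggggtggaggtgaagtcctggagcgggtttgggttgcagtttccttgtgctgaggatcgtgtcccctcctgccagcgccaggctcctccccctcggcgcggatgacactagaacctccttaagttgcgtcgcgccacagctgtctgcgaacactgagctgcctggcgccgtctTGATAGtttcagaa
Tfcp2l1 (chr1:118627695-118627994, plus strand): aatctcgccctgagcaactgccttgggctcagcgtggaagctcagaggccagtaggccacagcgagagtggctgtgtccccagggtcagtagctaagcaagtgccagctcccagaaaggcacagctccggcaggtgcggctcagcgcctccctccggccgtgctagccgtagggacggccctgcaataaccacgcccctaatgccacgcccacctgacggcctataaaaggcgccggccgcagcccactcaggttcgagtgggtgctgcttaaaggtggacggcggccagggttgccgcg
Emx1 (chr6:85187681-85187980, plus strand): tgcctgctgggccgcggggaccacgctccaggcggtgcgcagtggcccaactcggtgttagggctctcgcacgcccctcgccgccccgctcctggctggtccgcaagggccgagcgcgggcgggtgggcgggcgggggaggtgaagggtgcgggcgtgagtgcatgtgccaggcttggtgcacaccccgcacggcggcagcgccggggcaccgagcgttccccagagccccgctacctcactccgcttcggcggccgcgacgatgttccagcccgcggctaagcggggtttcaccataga
Across the 8 windows of the 6 members there were 2 matches. Both were the GATA spelling TGATAG, at base 37 after the start site of Gata3 and at base -218 relative to the upstream start of Elf5, and neither overlapped another motif. Of all 32851 windows of this length, 29.8% held the GATA motif, 8.86% the Ets motif and 5.28% the Iroquois motif, so these counts are a description of the windows. The 3 windows shown were rich in CG dinucleotides, with 22 in Gata3, 21 in Tfcp2l1 and 37 in Emx1, against a median of 7 over all windows.

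Most of the 8 members did not pass the test. All 8 passed the filter of at least 1 FPKM in at least 3 libraries. Calb1 rose in mutants past the threshold, 0 fell, and 7 did not pass. The test was limma on log2(FPKM + 1) over 13466 genes with Benjamini-Hochberg adjustment, at an adjusted p under 0.05; over all genes it called 0.475% higher and 1.05% lower in mutants, or 1.53% in either direction. The groups did not overlap for 4 members, with mutants higher for Calb1, Gata3 and Ehf and lower for Tfcp2l1, where 14.5% of all genes tested had groups apart, 5.93% with mutants higher and 8.61% with mutants lower. For the other 4 members, Gata2, Emx1, Emx2 and Elf5, the ranges of the groups overlapped. The members' median log2 fold change was 0.09, beside -0.0020 over all genes tested.

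**Figure D1:**
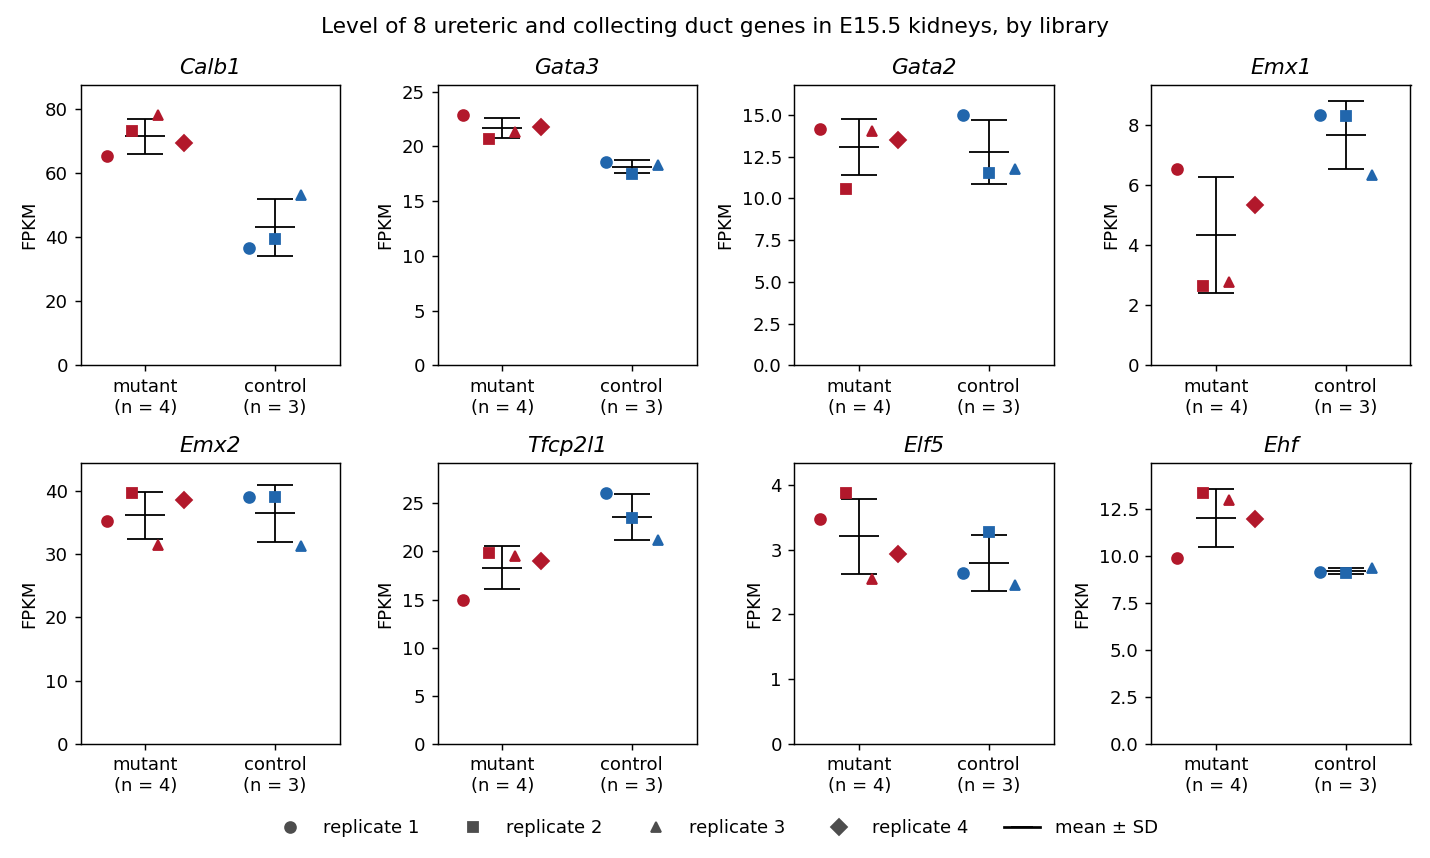
FPKM (vertical axes, starting at 0) of the 8 members in each of the 4 mutant and 3 control libraries, with symbols for replicates and black bars for mean ± SD. The mutant libraries lie above every control for Calb1 (65.5 to 78.2 against 36.8 to 53.3), Gata3 and Ehf and below every control for Tfcp2l1, while the groups overlap in the other panels.

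Calb1 (ENSMUSG00000028222.3) encodes calbindin-D28K, a cytosolic calcium-binding protein used as a marker of the ureteric tree and, in the mature nephron, of the distal and connecting tubule. It was at 65.5, 73.2, 78.2 and 69.6 FPKM in mutant replicates 1 to 4, against 36.8, 39.4 and 53.3 FPKM in control replicates 1 to 3. Every mutant library was above every control, and control replicate 3 was the highest of its group. The means were 71.6 ± 5.43 FPKM in mutants and 43.1 ± 8.89 FPKM in controls (SD, n = 4 and 3), a ratio of 1.66. Fold changes are differences of mean log2(FPKM + 1), a scale that compresses the change of low genes, and for Calb1 this was 0.73 (SE 0.12; limma adjusted p = 0.0325). An exact permutation of the 35 possible group assignments gave a two-sided p of 0.0286, the smallest this design allows. Only 0.141% of the genes tested had a larger log2 fold change. In the authors' deposited table the DESeq2 log2 fold change was 0.73 (SE 0.13; adjusted p = 8.26e-06).

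The Calb1 call depended on which libraries were included, although its direction did not. It was kept without mutant replicate 1 (limma adjusted p = 0.0306) and without control replicate 3 (0.0145). It was lost without mutant replicate 2 (0.0835), 3 (0.0631) or 4 (0.0870) and without control replicate 1 (0.141) or 2 (0.192), with log2 fold changes of 0.63 to 0.89 over the 7 omissions. Embryonic beta-globin Hbb-y, whose share declines as embryos age, reached 1.38%, 1.53%, 10.5% and 2.24% of the adult Hbb-bs level in mutant replicates 1 to 4, and 1.34%, 1.39% and 3.45% in control replicates 1 to 3 (both in FPKM). The library with the highest share in each group, replicate 3, also had the highest Calb1 of its group. With the log2 of this share as a covariate, the Calb1 fold change was 0.67 (SE 0.10; limma adjusted p = 0.0238).

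Gata3 (ENSMUSG00000015619.11) encodes a zinc finger factor that the nephric duct and ureteric bud need for their outgrowth. It was at 22.9, 20.7, 21.3 and 21.7 FPKM in mutants, against 18.6, 17.5 and 18.3 FPKM in controls. The groups were apart and each was tight, with means of 21.7 ± 0.918 FPKM in mutants and 18.2 ± 0.586 FPKM in controls, or 19.3% more in mutants. The log2 fold change of 0.24 (SE 0.06) missed the limma threshold (adjusted p = 0.0931). The exact permutation p was 0.0286, two-sided. In the authors' deposited table Gata3 passed as higher (DESeq2 log2 fold change 0.25, SE 0.07; adjusted p = 0.0150).

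Gata2 (ENSMUSG00000015053.15) encodes the relative of Gata3 that is also known from blood progenitors, endothelium and collecting duct cells. It was at 14.2, 10.6, 14.0 and 13.5 FPKM in mutants and at 15.0, 11.5 and 11.8 FPKM in controls. The ranges of the groups overlapped, and the log2 fold change was 0.03 (SE 0.12, limma adjusted p = 0.963). Within a library, Gata3 stood at 1.61, 1.96, 1.52 and 1.61 times the FPKM of Gata2 in mutants and at 1.24, 1.52 and 1.56 times in controls.

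Emx1 (ENSMUSG00000033726.9) and Emx2 encode closely related homeobox factors. Emx2 is required in the mouse for the ureteric bud to branch in the mesenchyme, and Emx1 is best known from the forebrain. Emx1 was at 6.56, 2.64, 2.80 and 5.34 FPKM in mutants, against 8.35, 8.31 and 6.36 FPKM in controls. Mutant replicates 2 and 3 were the lowest, while mutant replicate 1 lay just above control replicate 3. The mean was 4.34 ± 1.93 FPKM in mutants and 7.67 ± 1.13 FPKM in controls, and the spread among mutants, 44.6% of their mean, was the widest of the 8 members. The log2 fold change of -0.76 (SE 0.27) missed the limma threshold (adjusted p = 0.262), with an exact permutation p of 0.114, two-sided. It missed in the authors' deposited table as well (DESeq2 log2 fold change -0.82, SE 0.30; adjusted p = 0.0835). Emx1 rested on 193 to 911 reads per library.

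Emx2 (ENSMUSG00000043969.5) was at 35.3, 39.7, 31.4 and 38.6 FPKM in mutants and at 39.1, 39.2 and 31.3 FPKM in controls. The groups overlapped, with means of 36.2 ± 3.72 FPKM in mutants and 36.5 ± 4.50 FPKM in controls, and the log2 fold change was -0.0093 (SE 0.11; limma adjusted p = 0.988). Emx1 was at 0.186, 0.0666, 0.0890 and 0.139 times the FPKM of Emx2 in mutants, against 0.214, 0.212 and 0.203 times in controls. All 4 mutant ratios were below all 3 control ratios, and the controls differed little from each other. Emx2 has an overlapping antisense gene, Emx2os, and without a stated strand setting for the counting the reads of both cannot be told apart.

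Tfcp2l1 (ENSMUSG00000026380.11) encodes a grainyhead-like factor needed in the mouse for the mix of principal and intercalated cells in the collecting duct. It was at 15.0, 19.8, 19.5 and 19.0 FPKM in mutants, against 26.1, 23.5 and 21.2 FPKM in controls. Every mutant library was below every control, and mutant replicate 1 was well below the other mutants. The means were 18.3 ± 2.26 FPKM in mutants and 23.6 ± 2.43 FPKM in controls. The log2 fold change of -0.35 (SE 0.11) missed the limma threshold (adjusted p = 0.170), with an exact permutation p of 0.0286, two-sided. In the authors' deposited table it was just outside the threshold (DESeq2 log2 fold change -0.36, SE 0.12; adjusted p = 0.0524).

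Elf5 and Ehf encode Ets-family factors of epithelia, and Elf5 is known from principal cells. Ehf (ENSMUSG00000012350.16) was at 9.86, 13.3, 13.0 and 11.9 FPKM in mutants, against 9.14, 9.11 and 9.38 FPKM in controls. The controls lay very close together, at 1.64% of their mean, and the lowest mutant, replicate 1, was only just above them. The log2 fold change was 0.34 (SE 0.10; limma adjusted p = 0.136), with an exact permutation p of 0.0571, two-sided. Without mutant replicate 1 Ehf passed as higher (log2 fold change 0.43, SE 0.06; limma adjusted p = 0.0166). It also passed in the authors' deposited table (DESeq2 log2 fold change 0.39, SE 0.12; adjusted p = 0.0231). Elf5 (ENSMUSG00000027186.16) was at 3.48, 3.88, 2.56 and 2.93 FPKM in mutants and at 2.65, 3.28 and 2.46 FPKM in controls. Its groups overlapped (log2 fold change 0.14, SE 0.13; limma adjusted p = 0.724), and it rested on 348 to 676 reads per library.

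In the authors' deposited table, 3 of the 8 members passed at an adjusted p under 0.05, all higher in mutants (Calb1, Gata3 and Ehf). The DESeq2 columns of the authors' deposited table called 1.75% of the 16153 genes with a p-value higher and 3.74% lower, or 5.49% in all.

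**Figure D2:**
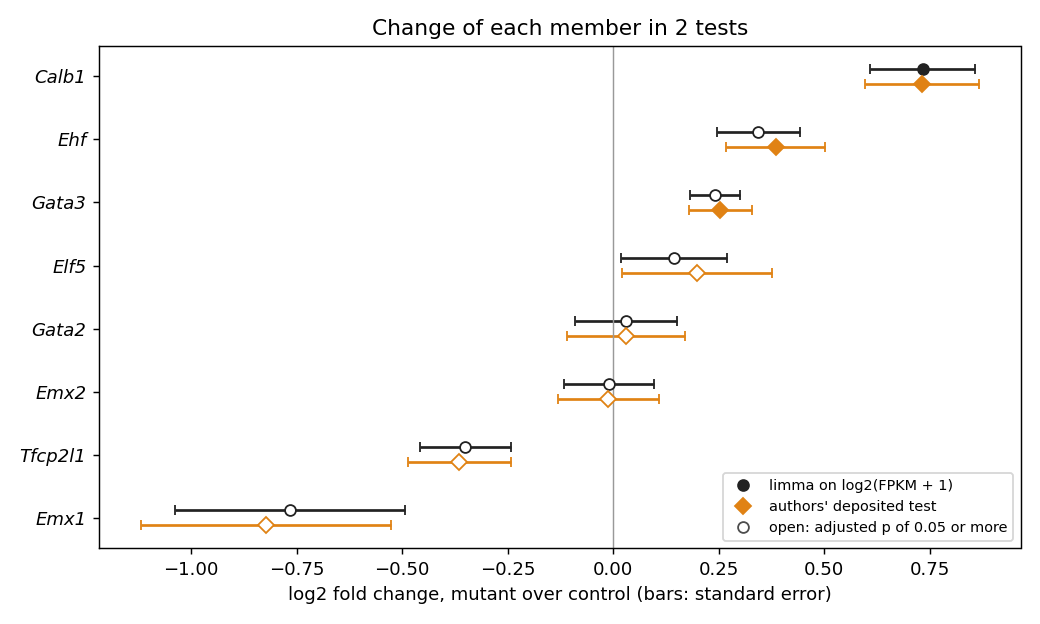
Log2 fold change of each member, mutant over control (horizontal axis, bars of 1 standard error), from limma (black circles) and from the authors' deposited DESeq2 columns (orange diamonds), filled where the adjusted p was under 0.05. Calb1 is filled in both tests, Ehf and Gata3 only in the deposited one, and Emx1 has the widest bars (SE 0.27 and 0.30).

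Whether a member moved apart from its relative was tested directly for 3 pairs, which were chosen after the values were seen. The log2 ratio of Emx1 to Emx2 averaged -3.17 ± 0.66 in mutants and -2.25 ± 0.04 in controls, a difference of -0.91 (exact permutation p = 0.0571, two-sided; 0.129 adjusted over the 3 pairs). For Gata3 over Gata2 the difference was 0.22 (exact permutation p = 0.0857; adjusted 0.129), and for Ehf over Elf5 it was 0.18 (exact permutation p = 0.457; adjusted 0.457). None of the 3 differences passed, and the smallest p this design allows is 0.0286 before adjustment.

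**Figure D3:**
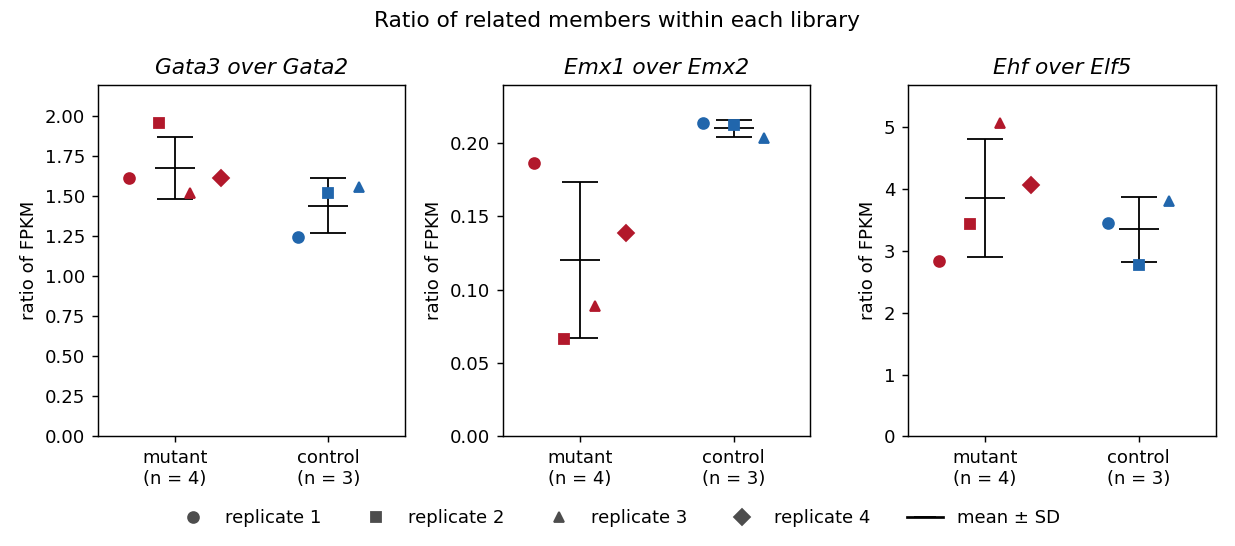
Ratio of FPKM between related members within each library (vertical axes, starting at 0), for 4 mutant and 3 control libraries, with black bars for mean ± SD. The Emx1 to Emx2 ratio is 0.0666 to 0.186 in mutants and 0.203 to 0.214 in controls, whereas the other ratios overlap between the groups.

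FPKM is scaled by gene length, so the members were ordered by it as a description. The lengths used are not given, and the order of different genes rests on them. In mutants the order of mean FPKM was Calb1, Emx2, Gata3, Tfcp2l1, Gata2, Ehf, Emx1 and Elf5. The ranges of neighbours overlapped only for Gata2 with Ehf and for Emx1 with Elf5. In controls the order was Calb1, Emx2, Tfcp2l1, Gata3, Gata2, Ehf, Emx1 and Elf5, and only Calb1 and Emx2 overlapped. Gata3 was thus above Tfcp2l1 in all mutants (at least 20.7 FPKM against at most 19.8) and below it in all controls (at most 18.6 FPKM against at least 21.2). These neighbours were singled out after their values were seen, and their change of order was not tested.

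Other genes of the ureteric tree and the collecting duct were taken from lists chosen with earlier results of these data known. Of 37 such genes, 36 were in the table and 33 passed the filter. By limma 1 rose, 0 fell and 32 did not pass, where 0.475% of all genes tested rose and 1.05% fell. The median log2 fold change was -0.07. In the authors' deposited table, 6 of the 36 passed as higher and 12 as lower, where 1.75% and 3.74% of all genes did. Those shares over all genes also stand beside the lists below. The gene that rose belonged to the ureteric trunk list, with 4 of 7 genes above 0, 3 below and a median of 0.05. At an unadjusted limma p under 0.05 were 3 higher and 1 lower, against 13.7% of all genes tested. The deposited test passed 3 as higher and 0 as lower. The summed FPKM of the trunk list, which includes that gene, was 81.4 to 95.3 in mutants and 61.8 to 66.1 in controls.

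Genes of the ureteric tip, the branching end of the tree, had log2 fold changes on both sides of 0, 5 above and 5 below, and 0 of 10 passed by limma (6 at an unadjusted p under 0.05, where 13.7% of all genes tested were; 2 higher and 2 lower in the authors' deposited table). The receptor gene Ret was at 12.1 ± 2.41 FPKM in mutants and 8.35 ± 0.428 FPKM in controls, and Wnt11, a ligand gene of the tips, at 10.6 ± 2.04 and 14.8 ± 1.54 FPKM in mutants and controls (limma adjusted p = 0.141 and 0.165; both chosen after their values were seen). The smallest p of the list belonged to Sox8, a transcription factor gene (1.40 ± 0.128 FPKM in mutants, 2.06 ± 0.155 in controls; limma adjusted p = 0.0823). In the authors' deposited table Ret passed as higher, and Wnt11 and Sox8 as lower (DESeq2 adjusted p = 0.0118, 0.0393 and 0.0094). The summed FPKM of the tip list was 180.1 to 200.5 in mutants and 173.9 to 192.0 in controls, so the groups overlapped.

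The general epithelial list and the lists below were also chosen with earlier results of these data known. Their counts beside the share of all genes are therefore descriptions and carry no test. Where 49.2% of all genes tested had a log2 fold change above 0, all 10 general epithelial genes did, with a median of 0.19. Of these 1 rose, Cldn4, a claudin of tight junctions, and 9 did not pass; Cldn4 stood at 57.9 ± 3.04 FPKM in mutants and 35.4 ± 5.19 FPKM in controls (log2 fold change 0.70, SE 0.10; limma adjusted p = 0.0156), and it kept its call in 3 of 7 omissions. At an unadjusted limma p under 0.05 were 5 of the 10, all higher, against 13.7% of all genes tested. The authors' deposited table had 3 passing as higher and 0 as lower. The summed level of these 10 genes was 420.4 to 503.3 FPKM in mutants and 349.3 to 394.9 FPKM in controls. The part of these epithelial levels in the Calb1 result was not tested.

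Genes listed for mature collecting duct cells mostly had a log2 fold change below 0, where 49.2% of all genes tested were above 0. Whether their RNA came from collecting ducts or from nephron segments was not tested. Of 10 principal cell genes, 9 had a log2 fold change below 0 and 1 above, with a median of -0.26, and 0 passed by limma (6 at an unadjusted p under 0.05, against 13.7% of all genes tested; 1 higher and 3 lower in the authors' deposited table). The water channel gene Aqp2, which had the smallest p, was at 1.60 ± 0.514 FPKM in mutants and 3.63 ± 1.10 FPKM in controls (log2 fold change -0.83, SE 0.19; limma adjusted p = 0.0775). Aqp2 passed as lower in the authors' deposited table (DESeq2 adjusted p = 0.0029). The 1 gene above 0 was Fxyd4, chosen after its values were seen. It was at 12.6 ± 2.23 FPKM in mutants and 8.58 ± 0.702 FPKM in controls, with the groups apart. The Fxyd4 log2 fold change was 0.49 (SE 0.13, limma adjusted p = 0.112), and it passed as higher in the deposited table (DESeq2 adjusted p = 0.0125). The 3 sodium channel subunit genes were chosen after their values were seen. Scnn1a was at 1.63 ± 0.303 FPKM in mutants and 2.70 ± 0.612 FPKM in controls, with the groups apart (log2 fold change -0.49, SE 0.14; limma adjusted p = 0.126), and it passed as lower in the authors' deposited table (DESeq2 adjusted p = 0.0104). Scnn1b and Scnn1g overlapped between the groups, with log2 fold changes of -0.0085 (SE 0.10) and -0.02 (SE 0.10). Of 10 intercalated cell genes 9 were in the table and 6 were tested. Their median was -0.53, and 0 passed by limma (4 at an unadjusted p under 0.05, all lower, against 13.7% of all genes tested). Of the 9, 7 passed as lower in the authors' deposited table, 4 of them among the 6 tested here. Atp6v1b1, a subunit of the proton pump, was at 1.82 ± 0.803 FPKM in mutants and 4.85 ± 1.13 FPKM in controls. Its log2 fold change was -1.07 (SE 0.22, limma adjusted p = 0.0611), and it passed as lower in the deposited table (DESeq2 adjusted p = 0.000114).

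**Figure D4:**
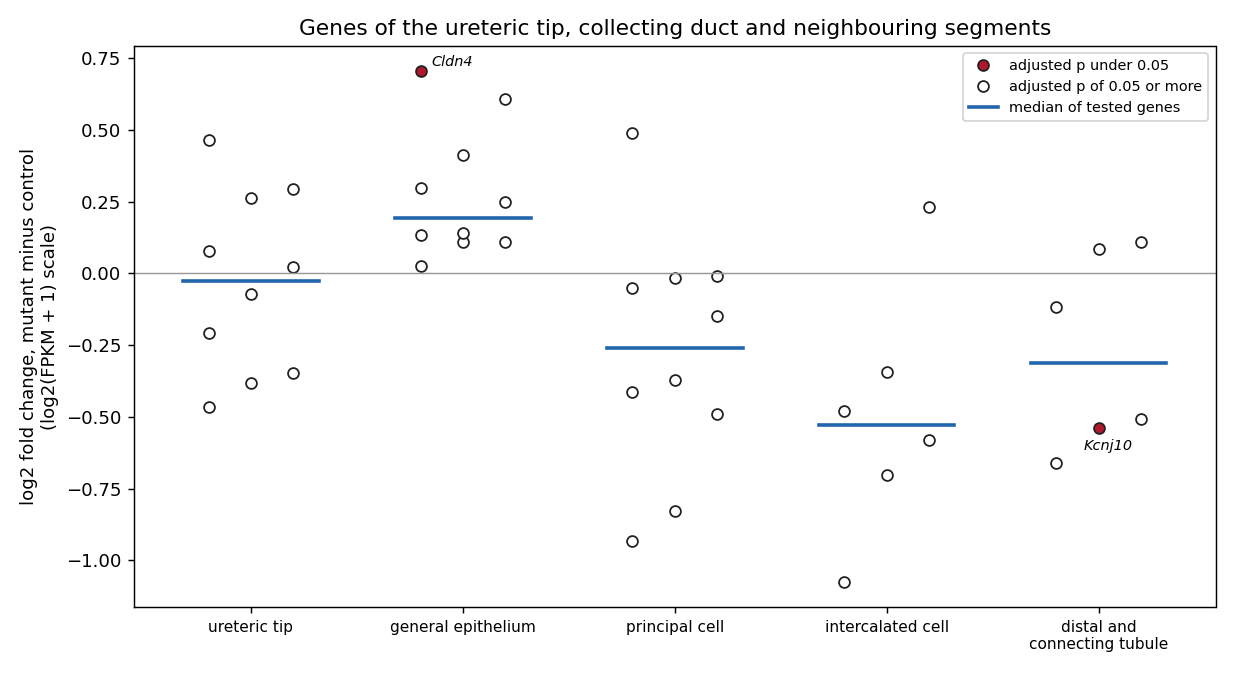
Difference in mean log2(FPKM + 1), mutant minus control (vertical axis), for each tested gene in 5 lists (horizontal axis), with blue lines for list medians and red fill for an adjusted p under 0.05. Cldn4 is filled above 0 and Kcnj10 below 0, and the medians run from 0.19 in general epithelium to -0.53 in intercalated cells.

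Calb1 is also known from the distal and connecting tubule, so genes of those segments were set beside it. Of 10 listed genes 9 were in the table and 6 were tested; 1 fell, 0 rose and 5 did not pass, with a median of -0.31. Of the 9, 2 passed as lower and 0 as higher in the authors' deposited table. Kcnj10, a potassium channel gene, was at 1.03 ± 0.0471 FPKM in mutants and 1.97 ± 0.368 FPKM in controls (log2 fold change -0.54, SE 0.10; limma adjusted p = 0.0398; kept in 1 of 7 omissions). The sodium chloride cotransporter gene Slc12a3, which defines the distal convoluted tubule, was at 0.191 ± 0.117 FPKM in mutants and 1.22 ± 0.552 FPKM in controls, with the groups apart. It missed the filter on low values, and it passed as lower in the authors' deposited table (DESeq2 log2 fold change -2.68, SE 0.43; adjusted p = 1.1e-07). The summed FPKM of the list was 26.9 to 38.8 in mutants and 37.8 to 43.8 in controls, and the part of these cells in the Calb1 result was not tested.

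Markers of other cells that can express the GATA genes or line the urinary tract were measured as well; for their counts at an unadjusted p under 0.05, the share over all genes tested is again 13.7%. Of 11 endothelial genes 0 passed by limma (2 at an unadjusted p under 0.05, both higher; 0 in the authors' deposited table), with a median of 0.12 and sums of 250.7 to 264.5 FPKM in mutants and 233.1 to 245.8 FPKM in controls. Erg, an endothelial Ets factor gene, had the smallest p (log2 fold change 0.27, SE 0.09; limma adjusted p = 0.196). Of 8 blood lineage genes 3 were tested and 0 passed by limma (0 at an unadjusted p under 0.05 and 0 in the authors' deposited table). Chga, a marker of sympathoadrenal cells, was below the filter. Of 7 mesangial and pericyte genes 0 passed by limma (3 at an unadjusted p under 0.05; 1 higher and 1 lower in the authors' deposited table), and the renin gene Ren1 was at 28.0 ± 10.4 FPKM in mutants and 64.5 ± 7.27 FPKM in controls (limma adjusted p = 0.129). Of 4 immune genes 0 passed by limma (3 at an unadjusted p under 0.05, all higher; 0 in the authors' deposited table), with Cd68, a macrophage gene, at 3.37 ± 0.161 FPKM in mutants and 2.77 ± 0.359 FPKM in controls (limma adjusted p = 0.302). Of 6 urothelial genes 5 were in the table, 3 were tested and 0 passed by limma (0 at an unadjusted p under 0.05 and 0 in the authors' deposited table); Upk3a, a uroplakin gene, was at 4.46 ± 1.82 FPKM in mutants and 6.66 ± 2.58 FPKM in controls (limma adjusted p = 0.621). The part of these cells in the member values was not tested.

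Among 14 further genes of the GATA, Ets and grainyhead families, 11 were in the table and 10 were tested. Elf3, an epithelial Ets factor gene, rose, 0 fell and 9 did not pass, with a median of 0.06. Elf3 was at 13.8, 14.0, 12.4 and 13.5 FPKM in mutants, against 8.21, 8.54 and 9.80 FPKM in controls (log2 fold change 0.55, SE 0.08; limma adjusted p = 0.0175), and it kept its call in 3 of 7 omissions. Pax2, a paired box gene that acts in nephric duct and nephron alike, fell, at 24.3 ± 3.63 FPKM in mutants and 36.3 ± 3.11 FPKM in controls (log2 fold change -0.57, SE 0.11; limma adjusted p = 0.0495), a call kept in 1 of 7 omissions. Of the 5 kidney markers, Wt1 and Nphs1 fell as well, with log2 fold changes of -0.41 (SE 0.06; limma adjusted p = 0.0156; kept in 3 of 7 omissions) and -0.60 (SE 0.11; limma adjusted p = 0.0424; kept in 1 of 7 omissions).

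For each member, the 2 named genes with the most similar profile over the 7 libraries were found by the root mean square difference of log2(FPKM + 1) centred on each gene's mean. These were the closest among 13466 genes and carry no test. Calb1 was closest to Cldn4 (difference 0.12) and to the homeobox gene Hoxd12 (0.14), and Calb1 itself varied by 0.40 on that measure. Cldn4 stood at 61.1, 59.9, 55.7 and 54.9 FPKM in mutants, against 30.6, 34.6 and 40.9 FPKM in controls, which puts control replicate 3 highest among the controls as for Calb1. Emx1 was closest to Irx1 (0.12), an Iroquois gene outside the deleted pair, and to Mcrip2 (0.13), while Emx1 itself varied by 0.52. Irx1 was at 11.3, 6.08, 6.72 and 10.4 FPKM in mutants, against 13.6, 15.6 and 12.2 FPKM in controls, with mutant replicates 2 and 3 lowest in both genes. Among the closest genes were Axin2 (0.04), a Wnt target gene, and Zfp977 (0.04) for Ehf, Mgat4a (0.06) for Tfcp2l1, and Fam83f (0.03) and Pla2g15 (0.04) for Gata3. For Gata2 they were Inf2 and Atn1 (0.06 each), for Emx2 Dab2 and Oser1 (0.05 each), and for Elf5 Cpq (0.03) and Cd9 (0.05).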

How the data were processed

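Whole-kidney RNA (Qiagen RNeasy) went into a directional NEB library kit, per the labels' protocols. The tools named in the submitters' processing notes are STAR 2.6.0c, HTSeq 0.6.1p2, DESeq2, Trim Galore 0.5.0 and FastQC 0.11.5, with mm39 (GRCm39) as build; the strand setting of the counting and the gene length are not given in the sources used here. The deposited table holds FPKM per library and DESeq2 columns: mean normalized count (a normalized signal that the authors made), log2 fold change with its standard error, test statistic (a score the authors made as fold change over error), p-value and adjusted p-value. These deposited log2 values and p-values were copied.

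Groups came from sample titles. Genes with at least 1 FPKM in at least 3 libraries (13466; 2701 left out) entered a two-sided limma test of log2(FPKM + 1) whose empirical Bayes step was trended and robust (limma 3.58.1, R 4.3.3). Single genes were also tested by exact permutation of the 35 possible group assignments. Counts were recovered from mean count, FPKM share and a size factor per library, with 100% of values within 0.05 of a whole number; the main test used FPKM, the deposited unit. Members and lists were chosen with earlier results of these data known. Genes named from the lists were those called (at most 4 per list) or, if none, the one with the smallest p, and otherwise are marked as chosen after their values were seen; Slc12a3 was named that way too. A few genes that these rules name are not reported here. Alternatives were another pseudocount, other filters and scalings, array weights, a replicate block, plain empirical Bayes, the deposited test, limma-voom on recovered counts, a globin covariate and leaving out each library. The pipeline was tested on simulated counts. Deviations of same-numbered libraries of both groups correlated at -0.16, 0.03 and 0.10, too few values to decide whether the numbers pair libraries. The main test used no pairing. Plots used Python 3.11.15 and matplotlib 3.10.9. Promoter sequences are RefSeq's on GRCm38.p6, which differs from the authors' build, and were joined by symbol alone.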

Additional observations from a re-analysis of the deposited data

Results flagged for a closer look

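Tfcp2l1 was at 15.0 FPKM in mutant replicate 1, against 19.0 to 19.8 FPKM in the other mutant libraries. Dixon's criterion for a single distant value in a group of 4 flagged it as far below them. Chance gives such a value in about 1 in 20 groups, and the mutant groups of all 8 members, Irx3 and Irx5 were searched. A single flag among them can therefore arise by chance. Without that library its log2 fold change was -0.26 (limma adjusted p = 0.119), against -0.35 with it. No explanation was tested.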

How the results depend on the processing

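The number of members called changed, 1 of 8 at first, was 4 with array weights (3 higher, 1 lower), 3 in the authors' deposited DESeq2 test, 0 with the replicate number as a block and 0 to 2 when 1 library was left out. The number of ureteric and collecting duct list genes called, 1 of 33 tested, was 19 with array weights, 18 in the deposited test over the 36 genes in the table (15 among the 33), 4 with the globin covariate, 2 by limma-voom on recovered counts, 0 with the replicate block and 0 to 8 when 1 library was left out; the cause was not tested, though fewer libraries leave less power. With the block the Calb1 fold change was 0.75 (limma adjusted p = 0.119). The correlations of deviations between same-numbered libraries were -0.16, 0.03 and 0.10, too few to decide whether the numbers pair libraries. Calb1, Gata3, Emx1, Tfcp2l1, Elf5 and Ehf kept their direction in all alternatives run, with Elf5 untested at a minimum of 5 FPKM. With array weights Tfcp2l1, Gata3 and Ehf passed (limma adjusted p = 0.0254, 0.0095 and 0.0063). Gata2 and Emx2 changed sign near 0, from -0.033 to 0.14 and from -0.11 to 0.056 when 1 library was left out, and Emx2 was 0.049 with the globin covariate. Irx5 ran from -0.12 to 0.11 when 1 library was left out and was 0.031 with quantile normalization, 0.058 with array weights, 0.029 in the deposited test and 0.016 with the globin covariate. Counting error bears most on Emx1 and Elf5, which had the fewest reads of the members.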
